A study of Mus musculus with 6 samples.

Results

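The genes Pax2, Tlx1 and Lbx1 lie near one another on mouse chromosome 19, and binding of Ezh2 along the 675 kb that hold them is described here in Th1 and Th2 cells. The stretch ran from 44710001 to 45385000 in the mm9 build, with Pax2 near 44830000, Tlx1 near 45225000 and Lbx1 near 45307000. It was chosen with the Ezh2 and input values of these same libraries known, so Ezh2 over input is given as a description and not as a test. The 3 gene positions were given with the stretch and were not looked up. The stretch made up 675 of the 2638957 bins of 1 kb on chromosomes 1 to 19 and X. Gene positions are approximate, since no mm9 annotation was used here and start sites, exons and introns were not placed on the reads.

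The study was a chromatin immunoprecipitation and sequencing (ChIP-seq) experiment on CD4 T cells that had been naive when taken from spleens of C57BL/6 mice. All cultures received T cell receptor and CD28 stimulation with IL-2 for 2 days and were then kept for 3 days with the cytokines but without that stimulation. Th1 cultures contained 10 ng/ml IL-12 and an antibody that blocks IL-4, and Th2 cultures contained 100 ng/ml IL-4 and an antibody that blocks IFN-γ. Each cell type gave 1 Ezh2 library, made with a polyclonal antibody, 1 control antibody library (rabbit IgG) and 1 input library of DNA without pull-down. The labels gave neither the age of the mice nor whether several were pooled. The Th2 control antibody library was not analysed here, because the file at hand held no line on chromosome 19. With 1 library per group there was no replicate spread, and every interval below is a 95% exact (Clopper-Pearson) interval that covers counting error only.

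Ezh2 is the enzyme of Polycomb repressive complex 2, which methylates lysine 27 of histone H3. The complex often covers CpG-rich promoters of developmental transcription factors in cells that do not use them. Genes of the homeobox class are among its best known targets, and their covered stretches are often much wider than a promoter. Pax2 encodes a paired box factor with a partial homeodomain that acts in the developing kidney, eye and midbrain. Tlx1, also named Hox11, encodes a homeodomain factor needed to form the spleen, and its ectopic activation is known from T cell leukaemia. Lbx1 encodes a homeodomain factor of migrating limb muscle precursors and of dorsal spinal cord neurons.

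In the RefSeq gene order of GRCm38.p6, 8 protein-coding genes stand between Pax2 and Tlx1 and 0 between Tlx1 and Lbx1. Among the 8 are Mrpl43, a protein of the mitochondrial ribosome, Twnk, the mitochondrial DNA helicase, and Slf2, Sema4g, Lzts2, Pdzd7, Sfxn3 and Kazald1. Btrc, an F-box protein of a ubiquitin ligase, follows Lbx1. This order was used for names only, and none of these neighbours was placed on the mm9 reads.

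Promoter sequences are shown because CpG content is the feature by which Polycomb targets are usually described, and Ezh2 was high around these genes. The RefSeq promoter table used here was matched for 2 of the 3 genes, Pax2 and Tlx1, with 3 start sites for Pax2 and 1 for Tlx1. The lines below give the 250 bases before the start site, 5′ to 3′ on the plus strand of chromosome 19 in GRCm38.p6, a build whose coordinates differ from the mm9 coordinates of the reads. Capitals mark each CG.
Pax2, first start site, chr19:44746351-44746600: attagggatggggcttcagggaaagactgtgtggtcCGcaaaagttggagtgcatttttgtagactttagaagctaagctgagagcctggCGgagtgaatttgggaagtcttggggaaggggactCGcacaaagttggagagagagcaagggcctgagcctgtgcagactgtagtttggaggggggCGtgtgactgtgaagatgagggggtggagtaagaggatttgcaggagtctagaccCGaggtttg
Pax2, next start site, chr19:44755502-44755751: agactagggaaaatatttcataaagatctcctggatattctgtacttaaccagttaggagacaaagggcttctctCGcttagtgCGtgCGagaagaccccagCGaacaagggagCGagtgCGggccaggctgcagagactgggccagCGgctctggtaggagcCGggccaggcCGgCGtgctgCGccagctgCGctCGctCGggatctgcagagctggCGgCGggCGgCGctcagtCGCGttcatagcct
Tlx1, chr19:45150465-45150714: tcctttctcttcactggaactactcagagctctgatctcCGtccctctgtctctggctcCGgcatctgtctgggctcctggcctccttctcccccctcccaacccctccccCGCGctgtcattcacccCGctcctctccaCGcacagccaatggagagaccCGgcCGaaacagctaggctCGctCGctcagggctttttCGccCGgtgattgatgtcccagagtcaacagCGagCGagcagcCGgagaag

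The promoters of Pax2 were unequal in CG, with 5 at the first start site, 20 at the next and 25 at the third, which is not printed. The Tlx1 promoter held 15, and 27.3% of the 32851 RefSeq promoter windows of this length held at least as many. The median over all these windows was 6. The related genes with an entry (Pax1, Pax5, Pax6, Pax7, Pax8, Pax9 and Tlx3, which is 7 of 11 listed) held between 6 and 19. The neighbours between Pax2 and Tlx1 with an entry, 7 of 8, held between 1 and 29, so their range took in that of Pax2 and Tlx1. The count of CG describes these letters only. CG was counted on the printed strand, and a CG reads the same on the other strand.

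The 5 libraries analysed held between 9326717 and 15578675 distinct positions on chromosomes 1 to 19 and X. A position is a distinct genomic interval, counted once however many reads shared it. For Ezh2 there were 10809666 in Th1 and 14963599 in Th2, and for input 15578675 and 12862628. Levels are given as positions per kb per 10000000 positions of the library, and folds are ratios of such levels. Run labels differ between the Th1 and Th2 Ezh2 libraries, and a difference of run cannot be told apart from one of cell type.

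Ezh2 formed 3 tall peaks along the stretch, one at each gene, above a low floor in both cell types. Over the whole 675 kb the Ezh2 libraries held 11731 positions in Th1 and 19163 in Th2, against 5216 and 4255 in the inputs and 2851 for the Th1 control antibody. This was 3.24-fold over input in Th1 and 3.87-fold in Th2, while the control antibody stood at 0.913-fold (0.872 to 0.956). Neither the inputs nor the control antibody had a peak at any of the 3 genes.

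**Figure D1:**
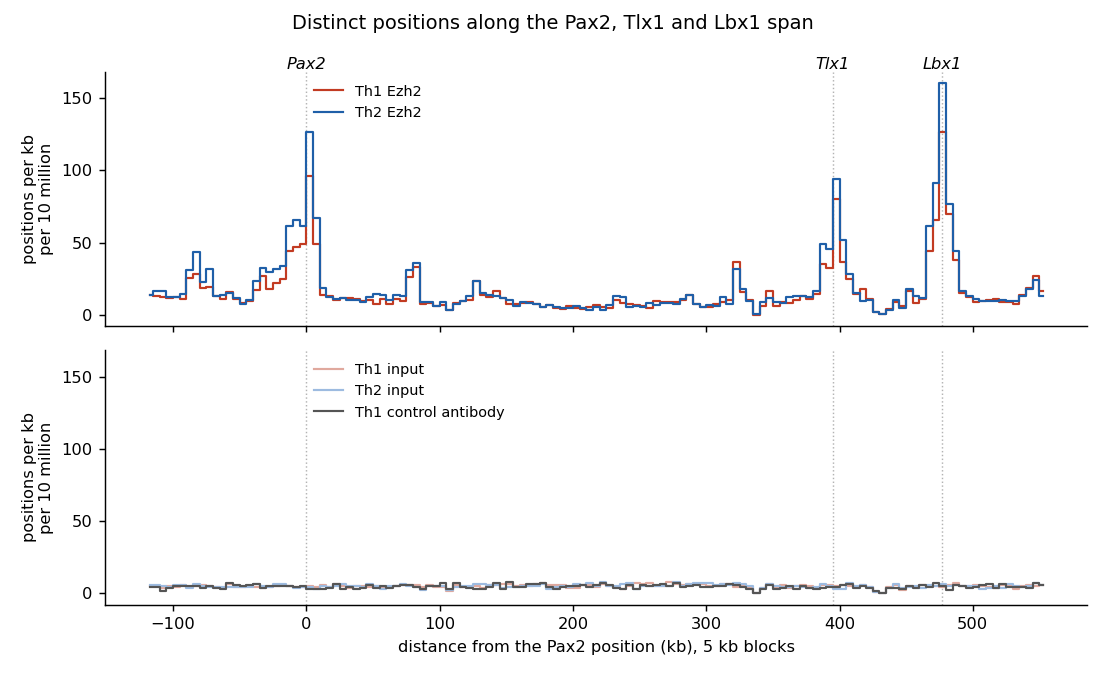
Distinct positions per kb per 10000000 library positions in 5 kb blocks along the 675 kb stretch, by distance in kb from the Pax2 position, with the Ezh2 libraries above and both inputs and the Th1 control antibody below on the same axis. Dotted lines mark the 3 gene positions. The 3 tallest Ezh2 peaks stand at Pax2, Tlx1 and Lbx1 in both cell types, and the lower panel has no peak there.

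A 1 kb bin counted as called where Ezh2 exceeded input by a one-sided exact binomial test with adjusted p below 0.05 and at least 2-fold. Along the stretch, 150 of 622 tested bins were called in Th1 and 173 of 640 in Th2. Over all tested bins of the genome 0.992% were called in Th1 and 1.21% in Th2, and since the stretch was chosen on this contrast, nothing is read from its excess. The Th1 control antibody had 0 called bins of 489 tested, where 0.00151% were called over the genome. Of the 489, 21 had an unadjusted p below 0.05 by the same binomial test. The share of bins over the genome at that looser limit was not counted, so nothing is read from the 21. Of the called bins 122 were shared, which was 81.3% of those in Th1 and 70.5% of those in Th2. The shared part over all called bins of the genome was not counted, so this overlap is not read as a trait of the stretch. The called length moved with the setting. It was 238 kb in Th1 and 317 kb in Th2 with all deposited reads, and 88 kb and 115 kb with at least 4-fold and adjusted p below 0.001. The share called over the genome moved as well, to 3.83% and 5.83% with all deposited reads and to 0.465% and 0.625% with the stricter limits.

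Around Lbx1 the single 1 kb bins reached the highest Ezh2 counts of the 3 genes. The top bin, from 45308001 to 45309000, held 148 Ezh2 positions in Th1 and 279 in Th2, against 5 and 12 in the inputs and 3 for the control antibody. This bin had the most Ezh2 positions of its region in both cell types. In the 20 kb around the Lbx1 position the Ezh2 libraries counted 1704 positions for Th1 and 2946 for Th2. The inputs held 156 in Th1 and 148 in Th2, and the control antibody 85. Ezh2 over input was thus 15.7 in Th1, with an interval of 13.4 to 18.7, and 17.1 in Th2, with an overlapping interval of 14.5 to 20.3. The control antibody was at 0.910-fold (0.690 to 1.19). With the inputs exchanged the Ezh2 intervals lay apart, at 13.7 in Th1 (11.6 to 16.3) and 19.7 in Th2 (16.7 to 23.2).

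At Pax2 the top bins of both cell types lay side by side. In Th1 it was the bin from 44833001 to 44834000, with 126 Ezh2 positions against 4 in the input. In Th2 it was the next bin, from 44834001 to 44835000, with 258 against 6. The 20 kb around the Pax2 position held 1302 Ezh2 positions in Th1 and 2404 in Th2, against 140 and 102 in the inputs and 69 for the control antibody. Ezh2 over input came to 13.4 in Th1, with an interval of 11.3 to 16.1, and to 20.3 in Th2, with one of 16.6 to 24.9, while the control antibody was at 0.823-fold (0.608 to 1.11). These intervals lay apart, but with the inputs exchanged they overlapped, at 15.2 in Th1 (12.4 to 18.8) and 17.9 in Th2 (15.1 to 21.4). Over both inputs together they lay apart again, at 14.2 in Th1 (12.3 to 16.3) and 18.9 in Th2 (16.5 to 21.6).

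By Ezh2 positions in the top bin, Tlx1 had the lowest peak of the 3 genes. Its top bin, from 45226001 to 45227000, held 98 Ezh2 positions in Th1 and 169 in Th2. The input counts in that bin were 10 in Th1 and 2 in Th2, too few for a fold in a single bin to be firm. The 20 kb around the Tlx1 position held 998 Ezh2 positions in Th1 and 1797 in Th2, against 177 and 108 in the inputs and 82 for the control antibody. Ezh2 over input was 8.13 in Th1, with an interval of 6.92 to 9.59, and 14.3 in Th2, with one of 11.8 to 17.5, and the control antibody at 0.774-fold (0.588 to 1.01).

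The apparent gap between the cell types at Tlx1 moved with the input. Scaled by library totals, the Th1 input exceeded the Th2 input 1.35-fold in this window (1.06 to 1.74), and the Ezh2 level in Th1 was 0.769 of that in Th2 (0.711 to 0.831). With the inputs exchanged, the folds were 11.0 in Th1 and 10.6 in Th2. Over both inputs together they were 9.21 in Th1 (8.07 to 10.5) and 12.0 in Th2 (10.6 to 13.6). Over both inputs together the folds at Pax2 were 14.2 and 18.9, and those at Lbx1 14.7 (13.0 to 16.7) and 18.4 (16.4 to 20.8). With 1 background for both cell types, the Th1 to Th2 ratio of these folds is that of the Ezh2 libraries by their totals, 0.750 at Pax2, 0.769 at Tlx1 and 0.801 at Lbx1. The median of that ratio over all 2902 regions described below was 0.854.

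**Figure D2:**
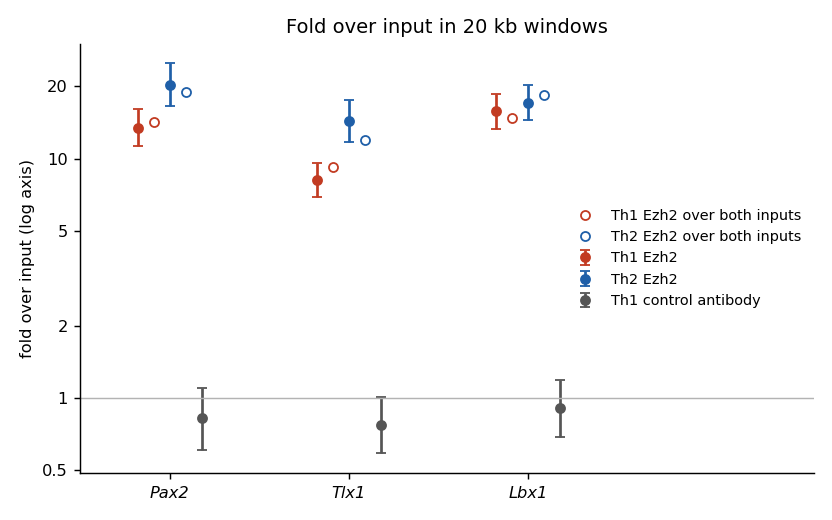
Fold over input (log axis) in 20 kb windows at Pax2, Tlx1 and Lbx1, with 95% exact counting intervals as bars; filled points use the input of the same cell type and open points both inputs together. Ezh2 lies between 8.13-fold and 20.3-fold, the Th1 control antibody below 1, and the distance between Th1 and Th2 at Tlx1 narrows over both inputs.

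When the positions of Th1 and Th2 were summed before bins were called, and called bins were merged across a gap of 1 bin, each gene lay in a region of over 30 kb. The Pax2 region ran 58 kb, from 44791001 to 44849000, the Tlx1 region 35 kb, from 45211001 to 45246000, and the Lbx1 region 34 kb, from 45294001 to 45328000. Among all 2902 regions of at least 3 kb they were the 7th, 30th and 34th widest. Over its whole region Lbx1 was highest of the 3, at 10.2-fold (9.03 to 11.6) for Th1 and 12.8-fold (11.2 to 14.6) for Th2. Pax2 followed at 7.79-fold (7.01 to 8.67) and 9.99-fold (8.96 to 11.2), and Tlx1 at 6.71-fold (5.89 to 7.66) and 9.02-fold (7.84 to 10.4). The intervals of Lbx1 lay apart from those of the other two in both cell types, whereas those of Pax2 and Tlx1 overlapped. In Th2 the bounds of Pax2 and Lbx1 nearly met, and the order of these genes turned with the window. Over 20 kb Pax2 stood at 20.3 and Lbx1 at 17.1 in Th2, and over 25 kb on each side at 10.2 and 9.96, with overlapping intervals. The bounds of the regions were themselves called from this signal. Among the 146 regions of at least 20 kb, the Lbx1 region ranked 10th by fold in Th1 and 12th in Th2, Pax2 44th and 43rd, and Tlx1 74th and 59th.

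Per length, the Lbx1 region was also the densest in Ezh2, at 54.5 positions per kb per 10000000 in Th1 and 67.9 in Th2. The Pax2 region stood at 36.0 and 48.2, and the Tlx1 region at 34.4 and 42.7. The top 5 bins held 34.8% of the Th1 and 35.2% of the Th2 Ezh2 positions of the Lbx1 region, and 33.2% and 31.5% in the Tlx1 region. In the Pax2 region they held only 24.2% and 23.4%, over a longer region.

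The peaks differed in shape. Pax2 was one-sided: on the side of lower coordinates Ezh2 was still 8.67-fold over input in Th1 and 14.2-fold in Th2 at 10 to 20 kb from the top bin. On the side of higher coordinates it had dropped to 2.41-fold and 3.77-fold at 5 to 10 kb. The long side then stood at 4.55-fold and 4.71-fold at 20 to 30 kb, and at 5.57-fold and 7.35-fold at 30 to 40 kb. In Th2 the called bins of this side formed 1 region of 49 kb with the peak, and in Th1 separate regions of 10, 1 and 32 kb covered nearly the same ground. The Th1 Ezh2 library was the shallower one, and the part of depth in this break was not tested. With libraries thinned to equal depth, the called length of the whole stretch was 135 kb in Th1 and 163 kb in Th2. Over the genome 1.04% and 1.44% of tested bins were then called.

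Lbx1 leaned the same way, but less. At 5 to 10 kb Ezh2 was 12.3-fold in Th1 and 17.8-fold in Th2 on the side of lower coordinates, against 6.98-fold and 7.98-fold on the other. Beyond 10 kb both sides were between 2.51-fold and 5.35-fold at 10 to 20 kb. Tlx1 had a second, lower maximum below its peak, at 45218001 to 45219000, where Th1 had 57 Ezh2 positions and Th2 112. At 5 to 10 kb its sides stood at 7.03-fold and 5.49-fold in Th1 and at 10.4-fold and 11.5-fold in Th2. Called separately, the Tlx1 region was 27 kb in both cell types, and the Lbx1 region 27 kb in Th1 and 30 kb in Th2.

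**Figure D3:**
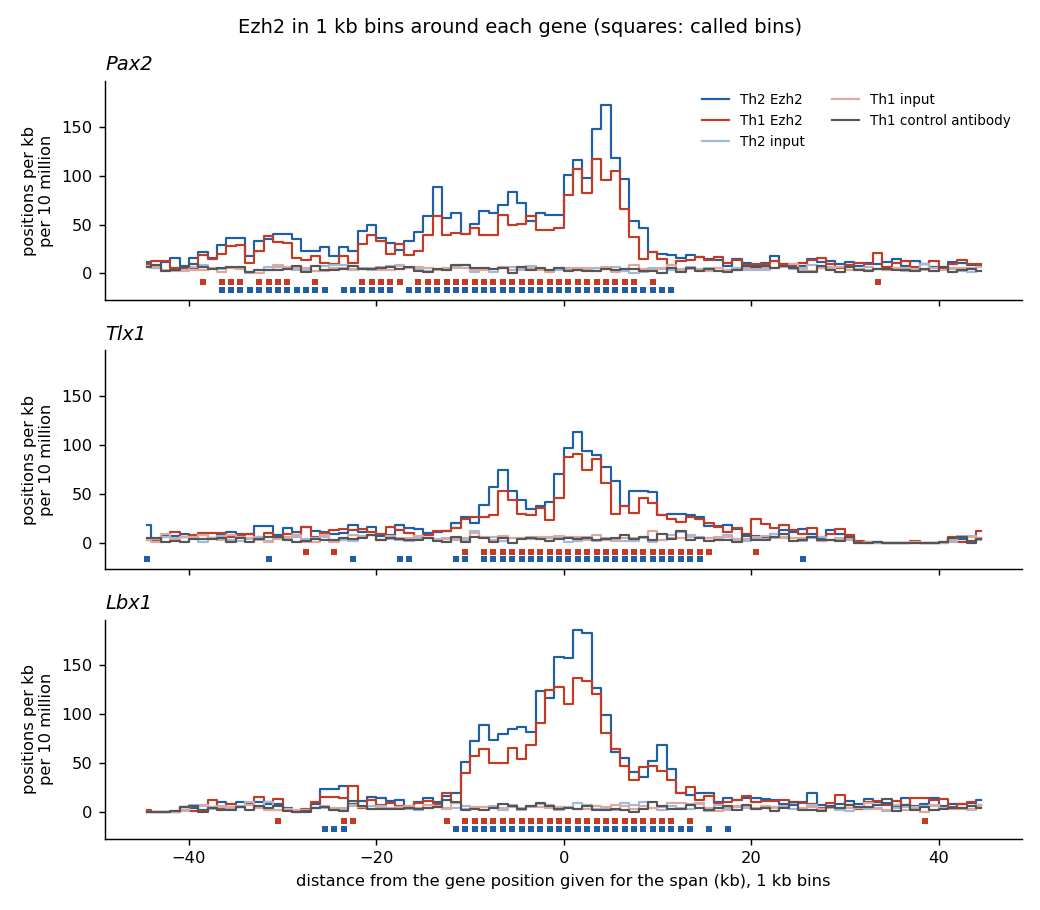
Distinct positions per kb per 10000000 library positions in 1 kb bins, within 45 kb of the position of Pax2, Tlx1 and Lbx1, for both Ezh2 libraries, both inputs and the Th1 control antibody; squares below the lines are called bins in Th1 (upper row) and Th2 (lower row). Pax2 has a long shoulder toward lower coordinates and a steep drop on the other side, and Th1 and Th2 have the same outline at each gene.

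Besides the 3 gene regions, 17 further regions of at least 3 kb lay in the stretch, between 3 and 39 kb long. Their folds ran from 2.08 to 7.50 in Th1 and from 1.56 to 7.34 in Th2, below the Lbx1 and Pax2 regions in both cell types, and 1 of them exceeded the Tlx1 region in Th1. The widest, from 44738001 to 44777000, lay before the Pax2 region, and 767 Ezh2 positions fell in it for Th1 and 1378 for Th2 (3.80-fold and 5.17-fold). A region of 10 kb after Pax2, from 44905001 to 44915000, held 318 and 504 (4.93-fold and 7.34-fold). One of 5 kb before Tlx1, from 45151001 to 45156000, held 203 and 258 (7.50-fold and 6.52-fold). In 4 of the 17, each of 3 kb and with 13 to 17 Th1 input positions, the control antibody was itself between 1.80-fold and 2.30-fold over input, and the part of a low input in their Ezh2 folds was not tested. At the 3 gene regions the control antibody stood between 0.847-fold and 0.924-fold.

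The ground between the regions was not uniform. The longest run without a bin called on both libraries together was 78 kb, from 44986001 to 45064000, between Pax2 and Tlx1. There Ezh2 over input was 1.11 for Th1, with an interval of 0.984 to 1.25, and 1.12 for Th2, with one of 1.00 to 1.26, on 499 and 702 positions. All bins of the stretch outside the regions together stood at 1.62 for Th1, with an interval of 1.55 to 1.70, and at 1.73 for Th2, with one of 1.65 to 1.82. Over the whole genome outside such regions the values were 0.959 and 0.948. The 48 kb between the Tlx1 and Lbx1 regions were at 2.11-fold (1.81 to 2.46) and 2.18-fold (1.87 to 2.55) as an average that takes in 3 of the short regions. At the edges, the first 10 kb of the stretch were at 2.59-fold in Th1 and 2.74-fold in Th2, and the 10 kb just before it at 1.72-fold and 2.17-fold. The last 10 kb were at 4.18-fold and 2.92-fold, and the 10 kb just after at 1.54-fold and 1.99-fold. In 9 bins no library had a position.

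Th1 and Th2 had nearly the same profile. Across the 675 bins, the Ezh2 positions of both cell types had a Pearson correlation of 0.957 and a Spearman correlation of 0.781, against 0.208 and 0.164 for the inputs. In the bins outside the regions the Pearson correlation was 0.538. Neighbouring bins are not independent, and all share the same sequence and mappability, so these values describe the profiles only.

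The Th1 to Th2 ratio of Ezh2 positions did not enter the choice of the stretch, and it was tested in all 2902 regions of the genome. The test was a two-sided exact binomial one with Benjamini-Hochberg adjustment, relative to the median ratio of all regions. That median was 0.854 of the ratio of the library totals. With 1 library for each cell type, the test compares these libraries and not the cell types. In the stretch 0 of 20 regions were called at adjusted p below 0.05 and at least 2-fold, where 1.31% of all regions were. At adjusted p below 0.05 alone 2 passed, where 12.5% of all regions did. Of the 2, 1 was higher in Th1, as were 5.27% of all regions, and 1 was higher in Th2, as were 7.2%. In the stretch 6 had an unadjusted p below 0.05, and the share of all regions at that limit was not counted.

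The Pax2 region was one of the 2. Its Ezh2 positions numbered 2254 for Th1 and 4182 for Th2. Relative to the median this came to 0.874 (0.830 to 0.920), or 1.14-fold more in Th2, with an adjusted p of 1.08e-05 by the exact test. At the Tlx1 region 1303 and 2236 positions came to 0.945 (0.881 to 1.01), with an adjusted p of 0.308 by the exact test. At the Lbx1 region 2002 and 3457 came to 0.939 (0.888 to 0.992), with an adjusted p of 0.125 by the same exact test. The interval of Pax2 overlapped those of the other two, and a difference between the genes in this ratio was not tested. Wide regions had in general slightly lower ratios, with a median of 0.948 over the 146 of at least 20 kb. Against that median Pax2 stood at 0.921 (0.875 to 0.970), with an adjusted p of 0.0186 by the exact test, Tlx1 at 0.996 and Lbx1 at 0.990. The share of the 146 that passed was not counted. By this ratio Pax2 ranked 32nd of the 146 toward Th2, Lbx1 67th and Tlx1 72nd. With library totals as the expected ratio, all 3 were lower in Th1, at 0.746, 0.807 and 0.802, each with an adjusted p below 0.05 by the same exact test. On that scale the median of all regions was 0.854.

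The other region that passed was the last of the stretch, from 45366001 to 45382000, where Th1 had 361 Ezh2 positions and Th2 457. Its ratio leaned toward Th1, at 1.28 (1.11 to 1.47), with an adjusted p of 0.00738 by the exact test. It no longer passed under 3 of the 5 alternatives. By that exact test it was 1.09 against library totals (adjusted p = 0.370), 1.11 against the uncalled bins within 500 kb (adjusted p = 0.246) and 1.18 with bins of 2 kb (adjusted p = 0.0821). With library totals 5 of the 20 regions of the stretch passed, 0 toward Th1 and 5 toward Th2, where 31% of all regions passed. The split of that 31% by direction was not counted. By library totals the median ratio of all 2902 regions was itself 0.854, so this split is not read as a trait of the stretch. The 17 regions away from the genes had ratios from 0.741 to 1.74, and most rested on few positions.

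When the inputs entered, none of the 20 regions passed. A conditional (Fisher) exact test set Ezh2 against input within each cell type, with adjustment over the 2902 regions. At adjusted p below 0.05 the count was 0 of 20, where 0.517% of all regions passed. In the same test 2 of the 20 had an unadjusted p below 0.05, and the share of all regions at that limit was not counted. The fold in Th1 relative to Th2, divided by its median, was 0.945 at Pax2 (exact test, adjusted p = 0.871), 0.901 at Tlx1 (adjusted p = 0.761) and 0.972 at Lbx1 (adjusted p = 0.995). With the control antibody in place of the Th1 input the direction turned at all 3 genes, to 1.05, 1.04 and 1.03, and none passed. The Th1 to Th2 ratios of the inputs over the gene regions were 0.956 (0.829 to 1.10) at Pax2, 1.09 (0.905 to 1.30) at Tlx1 and 0.999 (0.837 to 1.19) at Lbx1. The gene regions held between 213 and 417 input positions. These input ratios are scaled by library totals, so they cannot be set directly against the Pax2 ratio of 0.874, which is relative to the median. Whether a difference of that size in fold could be detected at this depth was not tested.

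**Figure D4:**
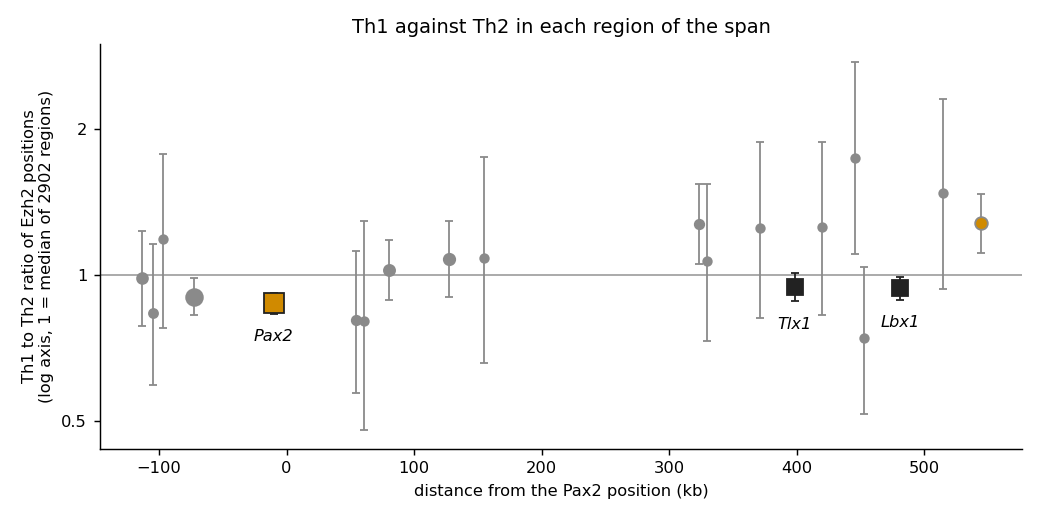
Th1 to Th2 ratio of Ezh2 positions (log axis) in each of the 20 regions of at least 3 kb, by distance in kb of the region's middle from the Pax2 position; 1 is the median of 2902 regions, bars are 95% exact counting intervals, and symbol size grows with region length. Squares are the regions of Pax2, Tlx1 and Lbx1, and orange marks the 2 regions with adjusted p below 0.05, Pax2 at 0.874 and the last region at 1.28.

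Reads per position, which the choice of the stretch did not use, were in the Ezh2 libraries not above the genome value over the gene regions. The Ezh2 reads per position were 2.07 at Pax2, 2.15 at Tlx1 and 2.08 at Lbx1 in Th1, against 2.24 over the genome. In Th2 they were 1.97, 2.01 and 1.96, against 2.04. In the stretch outside the regions they were 2.19 in Th1 and 1.98 in Th2, and only Tlx1 in Th2 lay above that. In the inputs the gene regions had between 1.21 and 1.27 in Th1 (1.29 over the genome) and between 1.58 and 1.77 in Th2 (1.77 over the genome). With all deposited reads in place of positions, the folds of the 20 kb windows lay inside the intervals given above for all 3 genes in both cell types.

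The regions of the genome most like each gene's region were taken by their distance in log2 fold in Th1, log2 fold in Th2 and log2 length, among all regions of at least 3 kb outside the stretch. They are given by mm9 position, as genes there were not placed. Nearest to Pax2 was chromosome 11 from 96018001 to 96072000, 54 kb long, with 2194 and 3844 Ezh2 positions (6.88-fold in Th1 and 9.54-fold in Th2). Nearest to Tlx1 was chromosome 4 from 115587001 to 115623000, 36 kb long, with 1253 and 2055 positions (6.93-fold and 8.52-fold). Nearest to Lbx1 was chromosome 14 from 122860001 to 122897000, 37 kb long, with 2483 and 3903 positions (10.8-fold and 12.5-fold). The second nearest to Lbx1 lay on chromosome 19 as well, from 43670001 to 43698000, at 9.91-fold and 12.6-fold.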

How the data were processed

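The authors deposited counts of reads, with 1 line for each distinct interval, no strand and the number of reads on it. The submitters' processing notes name CASAVA and mm9; alignment settings, read extension and filters are not given in the sources used here. Nearly all intervals were 119 bases long, after 36 sequencing cycles. Each distinct interval was counted once, at its midpoint, in 1 kb bins of chromosomes 1 to 19 and X. A bin needed at least 10 positions in Ezh2 and input together to be tested. Folds used library totals, and 0.5 was added to each count for calls, ranks and Th1 to Th2 ratios. Neighbouring called bins were joined across 1 uncalled bin.

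Tests were exact binomial and conditional exact tests (Python 3.11.15, scipy 1.17.1) with Benjamini-Hochberg adjustment over all bins or regions, and were tested on simulated data. The 3 genes, the stretch and the lists were chosen with earlier results of these data known. Every region of at least 3 kb in the stretch and the regions most like each gene's were eligible to be named. Values were 1 library per group, at the depths given above, and positions from amplified libraries are not independent molecules, so intervals cover counting error only. Expression was not measured, so cell type markers were not checked.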

Additional observations from a re-analysis of the deposited data

How the results depend on the processing

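No paired analysis was possible because there was only 1 library for every group. The main setting called 150 kb in Th1 and 173 kb in Th2 (0.992% and 1.21% of tested bins over the genome). Background scaling (totals over the 10 kb bins whose Ezh2 to input ratio was under its median) gave 262 and 301 kb (4% and 3.53%). Those bins were picked for a low ratio, which by itself raises folds and called lengths. All deposited reads gave 238 and 317 kb (3.83% and 5.83%), and the strict limits 88 and 115 kb (0.465% and 0.625%). Bins of 2 kb gave 218 kb in Th1 (1.14%) and 270 kb in Th2 (1.37%). Window folds, in the order Pax2, Tlx1 and Lbx1, were 7.37, 5.34 and 7.60 in Th1 and 10.2, 7.18 and 9.96 in Th2 with 25 kb on each side. With background scaling they were 19.1, 11.6 and 22.4 in Th1 and 28.5, 20.1 and 24.1 in Th2. With 5 kb on each side Pax2 had 15.7 and 21.6, Tlx1 10.3 and 18.0 and Lbx1 21.5 and 23.9. With the input of the other cell type Tlx1 had 11.0 and 10.6. Over the control antibody, the Th1 folds were 16.3 at Pax2, 10.5 at Tlx1 and 17.3 at Lbx1. The Th1 to Th2 ratio stayed below 1 at all 3 genes under the 5 alternatives for Ezh2 positions. Tlx1 and Lbx1 then also passed, at 0.807 and 0.802 (library totals), 0.928 and 0.912 (all reads) and 0.833 and 0.820 (uncalled bins within 500 kb), and Lbx1 alone at 0.910 (bins of 2 kb). The number of regions in the stretch that passed is given with the share of all regions that passed in parentheses. It was 2 (12.5%), and 5 (31%), 11 (36.1%) and 5 (38.1%) with those first 3. With the median of regions of at least 20 kb it was 4 (13.3%). This last setting and both inputs together were chosen after seeing the data. With the control antibody for the Th1 input, the ratio of folds turned to 1.05, 1.04 and 1.03, none past the test. The causes were not tested.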
